A study of Mus musculus with 42 samples.

Results

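The 9 genes described here, Krt7, Krt19, Epcam, Sox9, Elf3, Cldn7, Cd24a, Krt8 and Krt18, are known from cholangiocytes and from the ductular reaction. They were chosen by name from what is known of bile duct epithelium, but with earlier results of these data known. All 9 of them were among the 54446 genes counted and among the 15574 genes with enough counts to be tested. Their expression was measured by bulk RNA sequencing of the liver, with 1 library per mouse, so each value is a mean over all cells of the piece of liver. All 42 mice were females carrying the human APOE*3-Leiden transgene, which gives a human-like lipoprotein profile, and no mouse without the transgene was measured. The 10 mice of the chow group received a maintenance chow, and their age at the start is not given in the sources used here. The 16 mice of the WTD group were 8 to 14 weeks old when they began a Western-type diet with 1% cholesterol, 15% cocoa butter and 40.5% sucrose. After a run-in of 3 weeks the diet was given for 32 weeks, with 0.05% sodium cholate added from week 22. A further 16 mice followed the same schedule with the statin atorvastatin mixed into the diet, at 3.0 mg/kg/day at first and 4.5 mg/kg/day from week 5. Diet, cholate and the duration of WTD therefore differed together between WTD and chow, and their parts cannot be told apart.

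Cholangiocytes line the bile ducts and modify bile by secretion and absorption. In chronic liver injury small duct-like strands of such cells, with cells that share features of hepatocytes and cholangiocytes, spread from the portal tracts, which is called the ductular reaction. Keratins 7 and 19 are filament proteins of duct epithelium, whereas keratins 8 and 18 form filaments in hepatocytes and cholangiocytes alike. Epcam and Cldn7 encode surface and junction proteins of epithelia, Sox9 and Elf3 encode transcription factors, and Cd24a encodes a surface glycoprotein of progenitor and duct cells that is also made by neutrophils, B cells and red cell precursors.

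In GRCm38, 3 of the genes lie on chromosome 15 and 3 on chromosome 11. Krt8 (chr15:101996698-102004482, minus strand) and Krt18 (chr15:102028180-102032027, plus strand), whose proteins pair with each other, are neighbours that lie 23697 bases apart on opposite strands. Krt7 lies at chr15:101411043-101430313 on the plus strand. On chromosome 11 are Krt19 (chr11:100140810-100148665, minus strand), Sox9 (chr11:112782224-112787760, plus strand) and Cldn7 (chr11:69964779-69967885, plus strand). The other genes are Epcam (chr17:87635979-87651129, plus strand), Elf3 (chr1:135253575-135258568, minus strand) and Cd24a (chr10:43578284-43584265, plus strand). The counts cover the whole gene, so transcript variants were not told apart. Gm671, which overlaps Krt7 on the opposite strand, held 592 counts over all mice against 6576 of Krt7. The processed pseudogene Krt8-ps held 0 counts, and reads shared with near-identical copies would not have been counted.

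The promoters of the keratin pair Krt8 and Krt18, and of Elf3 and Epcam, which had the largest rises on WTD, are shown as the 250 bases before the RefSeq start in GRCm38.p6, read along the strand of the gene. Those of Krt8 (chr15:102004343-102004592, minus strand) and Krt18 (chr15:102027966-102028215, plus strand) are followed by those of Epcam (chr17:87635729-87635978, plus strand) and Elf3 (chr1:135258473-135258722, minus strand). The capitals mark matches on either strand to the letters of a TATA box (TATAAA), a GC box (GGGCGG), and the motifs of TEAD factors (GGAATG), of AP-1 (TGANTCA) and of ETS factors (GGAAGT).
Krt8: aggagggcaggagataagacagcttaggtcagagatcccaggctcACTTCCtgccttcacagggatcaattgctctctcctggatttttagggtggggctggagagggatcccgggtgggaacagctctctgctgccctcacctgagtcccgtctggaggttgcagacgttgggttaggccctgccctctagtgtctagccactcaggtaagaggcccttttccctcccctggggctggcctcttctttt
Krt18: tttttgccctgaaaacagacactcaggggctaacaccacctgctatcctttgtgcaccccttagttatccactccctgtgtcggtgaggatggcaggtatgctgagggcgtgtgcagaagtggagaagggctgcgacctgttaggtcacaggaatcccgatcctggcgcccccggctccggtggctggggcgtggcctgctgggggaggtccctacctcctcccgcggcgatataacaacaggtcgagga
Epcam: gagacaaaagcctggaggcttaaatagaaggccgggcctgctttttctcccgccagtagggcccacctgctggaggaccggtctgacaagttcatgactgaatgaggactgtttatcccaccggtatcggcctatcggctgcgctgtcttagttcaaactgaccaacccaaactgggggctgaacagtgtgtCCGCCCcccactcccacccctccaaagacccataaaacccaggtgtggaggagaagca
Elf3: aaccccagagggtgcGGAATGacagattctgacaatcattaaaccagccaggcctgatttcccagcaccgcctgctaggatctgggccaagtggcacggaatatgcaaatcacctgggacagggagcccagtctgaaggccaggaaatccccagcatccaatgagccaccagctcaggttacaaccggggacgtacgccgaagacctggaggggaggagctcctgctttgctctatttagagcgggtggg
The promoter of Krt8 held 1 ETS motif, that of Epcam 1 GC box and that of Elf3 1 TEAD motif, and none of these letters occurred in the window of Krt18. Of the 32851 promoters in the table, 12.4% held the letters of the TATA box, 32.7% the GC box, 12.6% the TEAD motif, 6.75% the AP-1 motif and 19.7% the ETS motif. The matches describe the letters only. RefSeq promoters were found for 6 of the 9 genes.

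Depth allowed all 9 genes to be counted in most mice. The total of gene counts ranged from 15661381 to 36224054 over the libraries. Levels are given as CPM, the counts of a gene relative to the TMM-scaled size of its library. Some libraries missed many weakly expressed genes: among genes at 1 to 2 CPM in a group, 0% to 57.3% had 0 counts in a single library. This share was above 20% in 9 libraries, 3 of them from chow, 5 from WTD and 1 from atorvastatin-treated mice, and chow mouse 2 had the highest share. For the weak genes Krt7, Elf3 and Cldn7, a count of 0 in such a library does not show absence.

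Krt8 and Krt18 were far more abundant than the other 7 genes. Per length of transcript, the median of Krt8 was 1144 TPM, a level scaled by length, in WTD-fed mice and that of Krt18 was 1049 TPM, and their ranges overlapped. Next came Epcam with 33.3 TPM, Cd24a with 32.6 TPM, Elf3 with 31.9 TPM, Krt19 with 23.4 TPM and Sox9 with 19.3 TPM, whose ranges all overlapped. Cldn7 with 8.09 TPM and Krt7 with 4.05 TPM were lowest, and the range of Cldn7 overlapped with those of Sox9 and Krt7. On chow the medians of Krt8 and Krt18 were 630 and 571 TPM, Sox9 led the others with 6.33 TPM, and Elf3, Cldn7 and Krt7 had 1.90, 0.957 and 0.823 TPM. Elf3 thus lay close to Epcam and Cd24a on WTD but below both on chow. Lengths are those of the merged exons of all transcript variants, 7049 bases for Krt7.

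**Figure D1:**
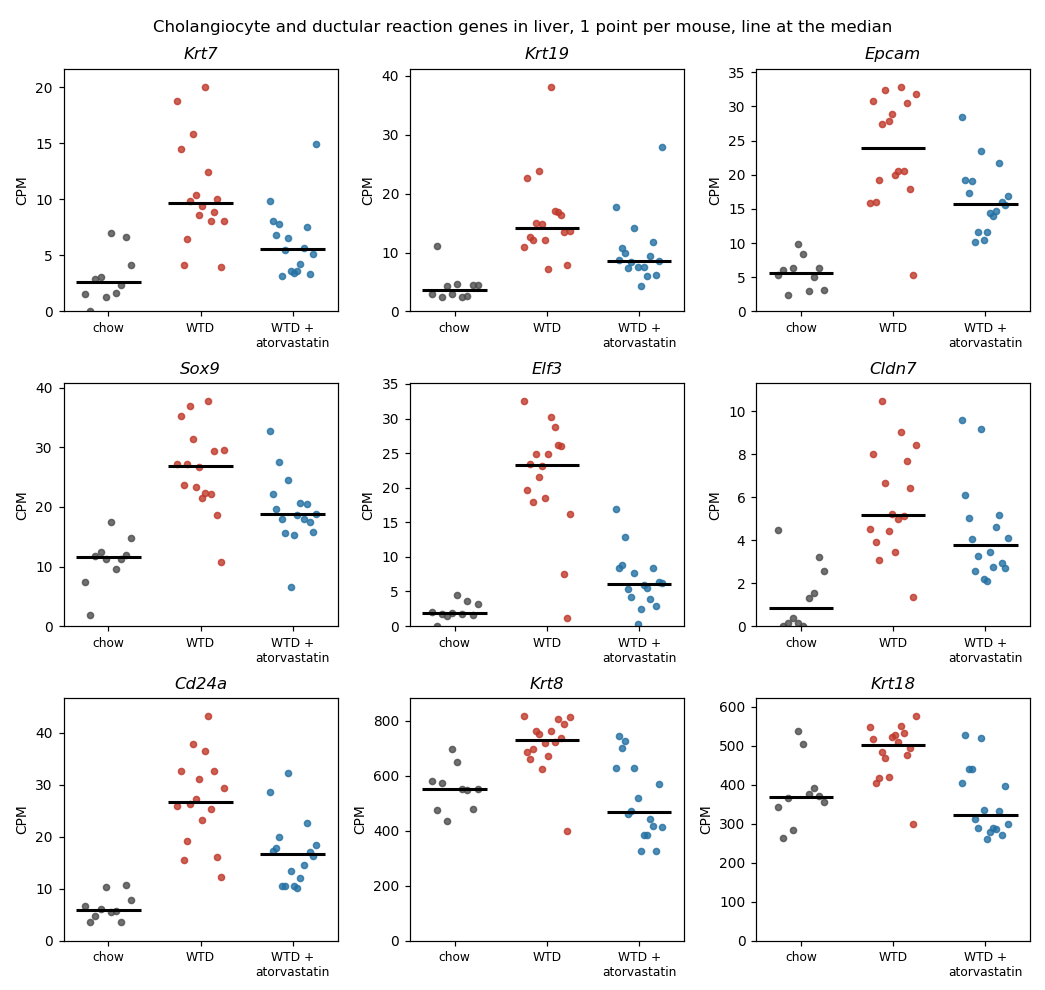
Level of each of the 9 genes in liver as CPM (vertical axes, linear and starting at 0), with 1 point per mouse in the chow (10 mice), WTD (16) and WTD with atorvastatin (16) groups and a line at the median. WTD mice lie above chow mice for 7 genes with few overlaps, and the ranges of Krt8 and Krt18 overlap widely. The same WTD mouse is the lowest of the WTD group in 8 panels.

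The first comparison asked how these genes differed between livers of WTD-fed and chow-fed mice. All 9 genes had a higher mean on WTD, and 8 of them rose with an adjusted p under 0.01 in edgeR's quasi-likelihood test, all but Krt18. Over all tested genes 33.5% were called in either direction and 17.5% were called higher. The median log2 fold change of the 9 genes was 1.91, compared with 0.03 over all tested genes. In bulk tissue fewer cells of a type and less RNA per cell cannot be told apart, and this holds for each result that follows.

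Of the keratins of duct epithelium, Krt19 had 2.38, 3.65 and 11.1 CPM as the lowest, median and highest value on chow, and 7.24, 14.2 and 38.2 CPM on WTD. Of the 16 WTD mice 13 lay above every chow mouse, and the highest chow value came from chow mouse 2, whose library missed 57.3% of weakly expressed genes. Krt19 rose 3.75-fold (log2 fold change 1.91, SE 0.27, adjusted p = 6.1e-08). Krt7 had 0, 2.64 and 7.04 CPM on chow and 3.97, 9.64 and 20.0 CPM on WTD. Again 13 WTD mice exceeded all chow mice, and Krt7 rose 3.44-fold (log2 1.78, SE 0.35, adjusted p = 3.6e-05).

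Among the surface and junction genes, Cd24a separated the groups completely. It had 3.51, 5.90 and 10.7 CPM on chow and 12.2, 26.8 and 43.3 CPM on WTD, so every WTD mouse was above every chow mouse, which held for 3.40% of all tested genes. Its rise was 4.17-fold (log2 2.06, SE 0.21, adjusted p = 1.8e-11). Epcam, a cell adhesion molecule of duct and progenitor cells, had 2.45, 5.68 and 9.86 CPM on chow and 5.37, 23.9 and 32.9 CPM on WTD. All WTD mice except mouse 15 were above the chow range, and Epcam rose 4.22-fold (log2 2.08, SE 0.22, adjusted p = 5.0e-11). Cldn7, a tight junction claudin, was the weakest gene of the group by CPM. It had 0, 0.846 and 4.47 CPM on chow, with 0 counts in 2 mice, and 1.35, 5.17 and 10.5 CPM on WTD. The groups overlapped, with 11 of 16 WTD mice above all chow mice, and the rise was 4.16-fold with a wide error (log2 2.06, SE 0.47, adjusted p = 0.00032).

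The 2 transcription factors differed in the size of their change. Elf3, an ETS-family factor of epithelia, had 0, 1.87 and 4.48 CPM on chow and 1.10, 23.2 and 32.5 CPM on WTD. Only WTD mouse 15 fell within the chow range, and the 9.59-fold rise was the largest estimate of the 9 genes (log2 3.26, SE 0.45, adjusted p = 6.1e-08). Sox9, a factor of duct and progenitor cells that stellate cells also carry, had 1.79, 11.6 and 17.5 CPM on chow and 10.8, 26.9 and 37.8 CPM on WTD. Here too WTD mouse 15 alone overlapped with chow, and Sox9 rose 2.41-fold (log2 1.27, SE 0.21, adjusted p = 1.5e-06).

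Krt8 and Krt18 changed by far less. Krt8 had 434, 553 and 697 CPM on chow and 399, 731 and 818 CPM on WTD, with 10 of the 16 WTD mice above all chow mice and mouse 15 below all of them. It rose 1.29-fold (log2 0.37, SE 0.12, adjusted p = 0.0083). Krt18 had 264, 369 and 538 CPM on chow and 299, 501 and 577 CPM on WTD, and its 1.28-fold difference did not pass (log2 0.35, SE 0.11, adjusted p = 0.010). Both lay at the edge of the threshold. The call of Krt8 held in 24 of 42 fits that left out 1 mouse and was lost without any chow mouse other than 5 or 6, or any WTD mouse other than 2, 3, 4, 7, 9 or 15 (highest adjusted p = 0.021). Krt18 was called without chow mouse 5 or 6, WTD mouse 3, 4, 7 or 15, or atorvastatin mouse 2, 7, 9 or 14 (lowest adjusted p = 0.0022). When the 9 libraries that missed many weak genes were left out, all 9 genes were called. Calls over all genes were also more numerous in that fit, 5873 of 15799 tested genes, of which 3067 were higher. Over 10 other settings of the fit, this one included, Krt8 was called in 9 and Krt18 in 7. Krt18 was called with DESeq2 (adjusted p = 0.0030) and limma-voom (adjusted p = 0.0037), and its highest adjusted p in these settings was 0.012.

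**Figure D2:**
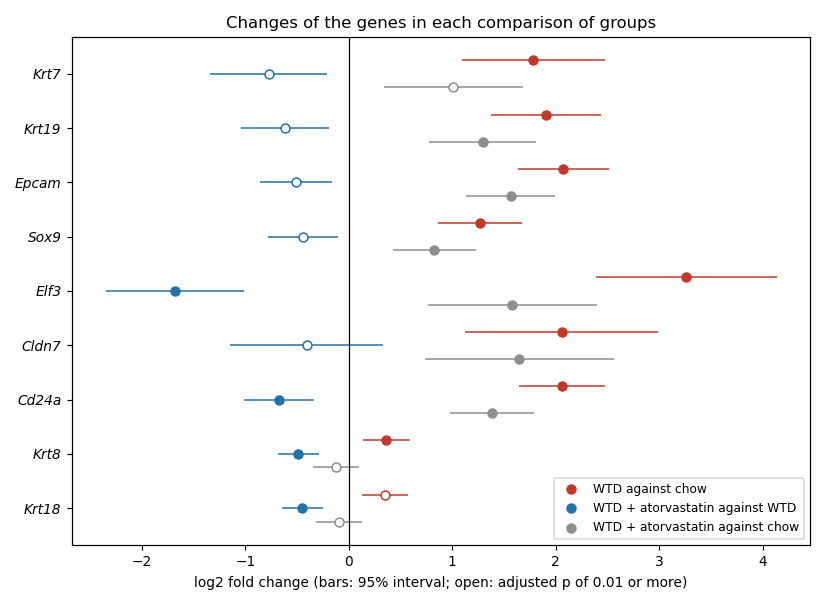
Log2 fold change of each gene (horizontal axis) in WTD against chow (red), WTD with atorvastatin against WTD (blue) and WTD with atorvastatin against chow (grey), with bars for the 95% interval and open points where the adjusted p was 0.01 or more. Elf3 has the largest estimates (3.26 and -1.68), and Krt8 and Krt18 sit near 0 in the comparison of treated mice with chow.

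The second comparison asked what differed between WTD-fed mice with and without atorvastatin. All 9 genes had a lower estimate with atorvastatin, and 4 of them, Elf3, Cd24a, Krt8 and Krt18, fell with an adjusted p under 0.01 in edgeR's test. Over all tested genes 7.10% were called in either direction and 2.26% were called lower. With the RLE scaling the calls over all genes were split differently, 582 higher and 479 lower compared with 754 higher and 352 lower under TMM, and 4 of the 9 genes were again called. The median log2 fold change of the 9 genes was -0.51, compared with 0.0016 over all tested genes. The same WTD mice served in the comparison with chow, so the opposite directions are not independent of each other. No gene separated the groups completely.

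Elf3 showed the largest decrease, from 23.2 CPM as the median on WTD to 6.10 CPM with atorvastatin (lowest 0.286, highest 16.9). All 16 treated mice were below the WTD median, and Elf3 fell by 1.68 on the log2 scale (SE 0.34, adjusted p = 0.00059), which is 0.312 times the WTD level. In all 42 fits without 1 mouse the call held. Cd24a had 10.1, 16.7 and 32.2 CPM in treated mice, of which 14 were below the WTD median and 5 below every WTD mouse. It fell by 0.67 (SE 0.17, adjusted p = 0.0047), and the call was lost without WTD mouse 11 (adjusted p = 0.011), without the 9 libraries that missed many weak genes (adjusted p = 0.011) and with the missed share as a covariate (adjusted p = 0.012).

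Krt8 had 325, 468 and 744 CPM in treated mice, and 15 of the 16 mice were below the WTD median. It fell by 0.49 (SE 0.10, adjusted p = 0.00057), a level 0.713 times that on WTD. Krt18 had 261, 322 and 527 CPM, with 14 treated mice below the WTD median, and fell by 0.45 (SE 0.10, adjusted p = 0.0013). Treated mice spread widely in both genes, with Krt8 at a coefficient of variation of 27.6% compared with 14.2% on WTD. Both calls held in all fits without 1 mouse.

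The other 5 genes did not pass. Krt7 had 3.20, 5.57 and 14.9 CPM with atorvastatin (log2 -0.77, SE 0.29, adjusted p = 0.068), and Krt19 had 4.29, 8.62 and 27.9 CPM (log2 -0.61, SE 0.22, adjusted p = 0.054). Epcam had 10.2, 15.8 and 28.4 CPM (log2 -0.51, SE 0.18, adjusted p = 0.047). Sox9 had 6.50, 18.8 and 32.7 CPM (log2 -0.44, SE 0.17, adjusted p = 0.087), and Cldn7 had 2.11, 3.76 and 9.58 CPM (log2 -0.41, SE 0.38, adjusted p = 0.58). Treated mice below the WTD median numbered 14 for Krt7, Krt19 and Sox9, 15 for Epcam and 12 for Cldn7. Without an adjustment 8 of the 9 genes had a p under 0.05. Single mice decided some calls, since Krt19 was called without atorvastatin mouse 16 (log2 -0.78, adjusted p = 0.0068) and Epcam without WTD mouse 15 (log2 -0.58, adjusted p = 0.0057). Sox9 was called without the 9 libraries that missed many weak genes (log2 -0.48, adjusted p = 0.0031), and Krt7 when the fit held the 2 compared groups alone (log2 -0.78, adjusted p = 0.0091). With limma-voom and sample quality weights 8 genes were called, all but Cldn7 (adjusted p = 0.017). Over all tested genes limma-voom called 3145, of which 1310 were lower, compared with 1106 and 352 in edgeR's test. DESeq2 called the same 4 genes as edgeR, and over all tested genes 1363, of which 669 were lower. With the missed share as a covariate in edgeR's test, Krt19 (log2 -0.48, adjusted p = 0.17) and Epcam (log2 -0.48, adjusted p = 0.090) were further from the threshold. Krt7, Sox9 and Cldn7 were nearer to it there but did not pass (lowest adjusted p = 0.019, for Sox9).

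Atorvastatin mouse 16 was the highest treated mouse for both Krt7 and Krt19, at 14.9 and 27.9 CPM, with the next mouse at 9.83 and 17.6 CPM. The same library had the highest summed level of the 16 treated mice for markers of gallbladder epithelium (24.6 CPM, group median 11.7) and of mesothelium (27.1 CPM, group median 13.0). Its Epcam, Sox9, Cldn7 and Elf3 were not the highest of the group. The part of these cell types in its keratin levels was not tested.

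The third comparison set treated mice against chow. In edgeR's test 6 genes were higher in the treated mice, Krt19, Epcam, Sox9, Elf3, Cldn7 and Cd24a, and over all tested genes 25.0% were called in either direction and 14.2% were called higher. Epcam was the 1 gene of the 9 without overlap, since all 16 treated mice exceeded all chow mice. How many of all tested genes separated these 2 groups was not counted, so this is given as a description. Epcam was 2.96-fold higher (log2 1.56, SE 0.22, adjusted p = 8.9e-08). Cd24a was 2.62-fold higher (log2 1.39, adjusted p = 3.8e-07) and Krt19 2.45-fold higher (log2 1.29, adjusted p = 9.6e-05). Elf3 was 2.99-fold higher (log2 1.58, SE 0.42, adjusted p = 0.0024), Cldn7 3.14-fold (log2 1.65, SE 0.47, adjusted p = 0.0041) and Sox9 1.78-fold (log2 0.83, SE 0.21, adjusted p = 0.0011). The call of Elf3 was lost with limma-voom (log2 1.44, adjusted p = 0.086) and that of Cldn7 when the fit held the 2 compared groups alone (log2 1.63, adjusted p = 0.019). Krt7 did not pass (log2 1.01, SE 0.34, adjusted p = 0.017), but it did without chow mouse 6 or chow mouse 9 (lowest adjusted p = 0.0046). Over 9 other settings of the fit, Krt7 was called in 2. These were DESeq2 (adjusted p = 0.0057) and edgeR's test without the 9 libraries that missed many weak genes (adjusted p = 0.0065). The highest adjusted p of Krt7 in these settings was 0.052, with limma-voom. Krt8 and Krt18 had log2 fold changes of -0.12 (95% interval -0.35 to 0.10, adjusted p = 0.44) and -0.10 (95% interval -0.32 to 0.13, adjusted p = 0.56).

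Ratios of counts within a library show whether keratins moved together, and they do not depend on the scaling of libraries. The ratio of Krt8 to Krt18, whose proteins polymerise with each other, was 1.50 in the median chow mouse, 1.49 in the median WTD mouse and 1.42 with atorvastatin, and it ranged from 1.20 to 1.80 over all mice. The difference of the log2 ratio was -0.0044 (SE 0.062, adjusted p = 0.94, two-sided permutation test) between WTD and chow and -0.05 (SE 0.050, adjusted p = 0.67) between treated and WTD-fed mice. The ratio of Krt19 to Krt18 was 0.00890 in the median on chow, 0.0309 on WTD and 0.0241 with atorvastatin. It was 2.99-fold higher on WTD than on chow (log2 difference 1.58, SE 0.30, adjusted p = 0.00015), so the duct keratin rose more than the keratin that hepatocytes share. Treated and WTD-fed mice differed by -0.18 (SE 0.20, adjusted p = 0.67), and treated mice and chow by 1.40 (SE 0.31, adjusted p = 0.00015). With Krt8 as the denominator the differences were 1.58 (SE 0.28, adjusted p = 0.00012), -0.12 (SE 0.20, adjusted p = 0.73) and 1.46 (SE 0.29, adjusted p = 0.00015). A total of 12 such tests were adjusted together, with 100000 permutations each.

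The ratio of Krt7 to Krt19 rested on 1 chow library. With 0.5 counts added to each gene it differed by 0.44 (SE 0.86, adjusted p = 0.87) between WTD and chow and by 0.31 (SE 0.85, adjusted p = 0.94) between treated mice and chow. Chow mouse 2 had 0 counts of Krt7, and without added counts this mouse could not enter. The differences were then -0.38 (adjusted p = 0.26) and -0.51 (adjusted p = 0.028, permutation test).

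**Figure D3:**
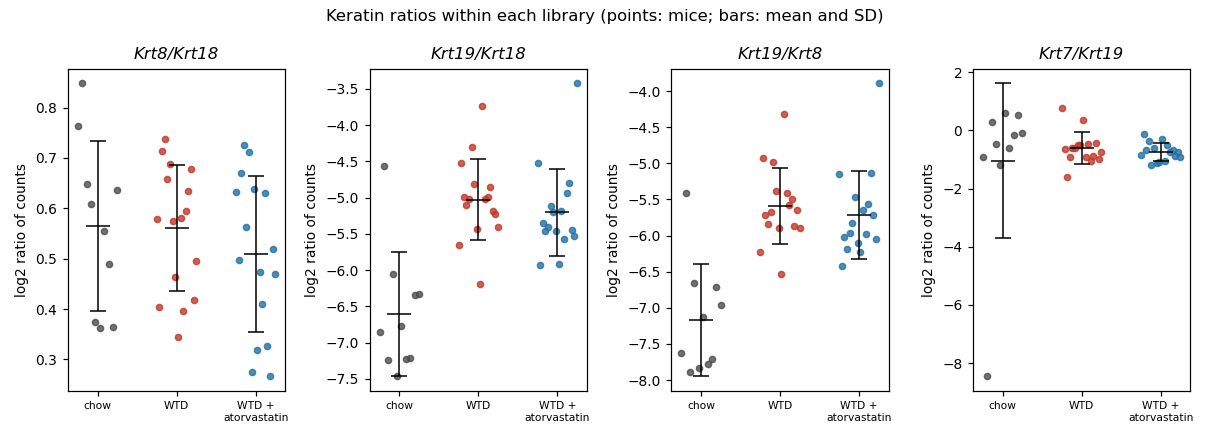
Log2 ratio of counts of 2 keratins within each library (vertical axes, which differ between panels), with 1 point per mouse and bars for the mean and SD of chow (10 mice), WTD (16) and WTD with atorvastatin (16). Krt8/Krt18 stays within 1.20 to 1.80 as a linear ratio in all groups, Krt19/Krt18 and Krt19/Krt8 are higher in both WTD-fed groups than on chow, and chow mouse 2 stands apart in the last panel.

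Within each WTD-fed group the genes were compared across mice on the log2 CPM scale, with 36 pairs of genes in each of the 2 groups and permutation p values adjusted over all 72 pairs. All 36 correlations were positive in both groups. With atorvastatin the median Pearson r was 0.63 (0.31 to 0.95), and 22 pairs passed an adjusted p under 0.05 by Pearson and 30 by Spearman. On WTD the median r was 0.68 (0.31 to 0.87), with 24 pairs by Pearson but 11 by Spearman. The WTD correlations were weaker without a single mouse. Without WTD mouse 15 the median r was 0.33 and 6 pairs passed, and without the 5 WTD libraries that missed many weak genes, mouse 15 among them, the median r was 0.42 and 7 pairs passed. In treated mice 28 pairs passed without the 1 such library (median r 0.66).

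Some pairs were close in both groups, and others were closer in treated mice than on WTD. Epcam and Cd24a had r = 0.90 and rho = 0.90 across the 16 treated mice (adjusted permutation p = 0.00018 and 0.000288, r = 0.87 without the 2 mice farthest from the median). On WTD they had r = 0.82 and rho = 0.87 (adjusted p = 0.0006 and 0.000288, r = 0.82 without the 2 farthest mice, r = 0.75 without mouse 15). The partners Krt8 and Krt18 had r = 0.92 and rho = 0.94 in treated mice (adjusted p = 0.00018 and 0.000288, r = 0.90 without the 2 farthest). On WTD they had r = 0.87 and rho = 0.61 (adjusted p = 0.0034 and 0.028), and r = 0.52 without the 2 farthest mice. The duct keratins Krt7 and Krt19 had r = 0.88 and rho = 0.88 in treated mice (adjusted p = 0.000288 for both, r = 0.75 without the 2 farthest), and r = 0.61 and rho = 0.52 on WTD (adjusted p = 0.023 and 0.064, r = 0.55 without the 2 farthest). Sox9 and Elf3 had r = 0.95 and rho = 0.85 in treated mice (adjusted p = 0.00018 and 0.00084, r = 0.78 without the 2 farthest). On WTD the same factors had r = 0.77 and rho = 0.25 (adjusted p = 0.017 and 0.38), and r = -0.14 without the 2 farthest mice, so there the relation rested on those mice.

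**Figure D4:**
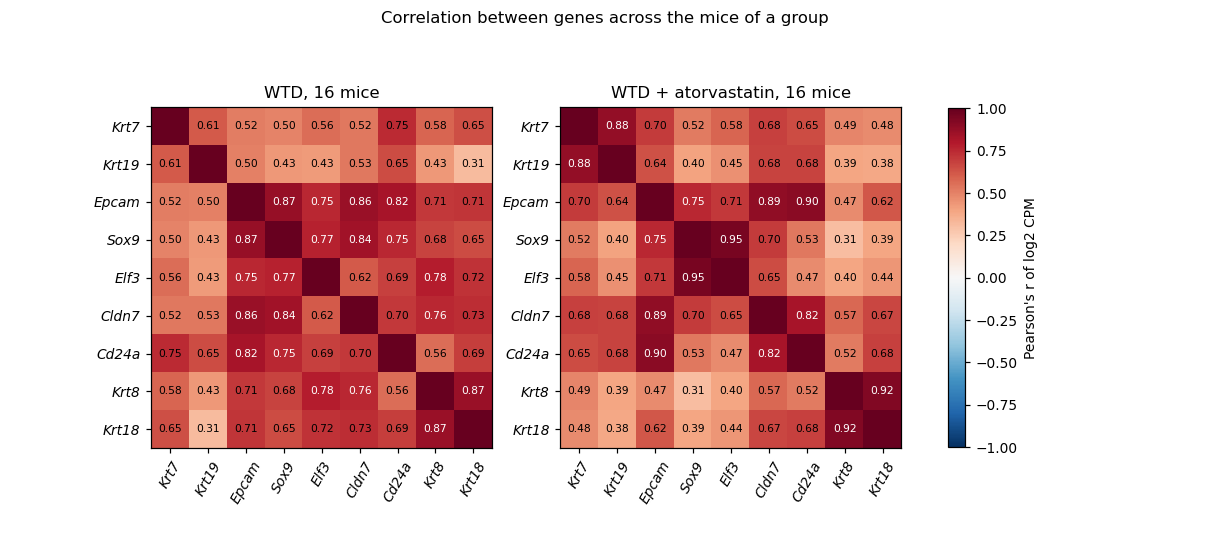
Pearson's r of log2 CPM (colour scale from -1 to 1, printed in each cell) for every pair of the 9 genes across the 16 WTD mice and the 16 mice with atorvastatin. All cells are positive, from 0.31 to 0.87 on WTD and from 0.31 to 0.95 with atorvastatin, and the WTD median falls to 0.33 without mouse 15.

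Single mice were at the same end of the range for many genes. WTD mouse 15 was the lowest WTD mouse for 8 of the 9 genes and among the lowest 3 for Krt19. Its library also had the lowest summed level of the 16 WTD mice for stellate cell markers (781 CPM, group median 1668) and macrophage markers (943 CPM, group median 1208), and the highest for hepatocyte markers (108900 CPM, group median 66866). It missed 21.9% of weakly expressed genes. Without this mouse the log2 fold changes of the 9 genes between WTD and chow kept their direction. Atorvastatin mouse 9 was among the lowest 3 treated mice for 8 genes and had the lowest stellate cell sum (674 CPM, group median 909), whereas atorvastatin mouse 1 was among the highest 3 for 7 genes and had the highest macrophage sum (1228 CPM, group median 957).

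Genes of duct function were followed by lists chosen with these genes in mind. Of 11 tested genes of duct transport and cilia, 5 rose on WTD, 0 fell and 6 did not pass (median log2 fold change 0.38). Slc5a1, a sodium-glucose transporter of epithelia, rose from a mean of 3.71 to 16.7 CPM (log2 2.15, adjusted p = 2.1e-07), and Pkhd1, the fibrocystin gene of cholangiocyte cilia, from 17.2 to 29.1 CPM (log2 0.76, adjusted p = 0.00019). Cftr, the chloride channel of cholangiocytes, which was picked after its values were seen, rose from 0.51 to 3.38 CPM (log2 2.72, adjusted p = 0.00045). The secretin receptor gene Sctr (log2 0.80, adjusted p = 0.15, called with limma-voom at adjusted p = 0.0026) and the water channel gene Aqp1 (log2 -0.11, adjusted p = 0.38) did not pass in edgeR's test. With atorvastatin 0 of the 11 genes were called by edgeR (median -0.18), 2 had an unadjusted p under 0.05, and DESeq2 called 0. The limma-voom fit called 2 higher, Aqp1 (log2 0.27) and Slc4a2 (log2 0.18), and 3 lower, Cftr, Slc5a1 and Pkhd1.

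Of 13 tested genes of other duct and progenitor epithelium, 12 rose on WTD and 1 did not pass, with a median log2 fold change of 2.12. Spp1, which encodes osteopontin, rose from 94.1 to 521 CPM (log2 2.47, adjusted p = 1.9e-13), and Bicc1, an RNA-binding protein gene of duct epithelium, from 13.8 to 61.5 CPM (log2 2.15, adjusted p = 1.8e-11). Mmp7, a matrix protease gene that was picked after its values were seen, rose from 0.19 to 7.34 CPM (log2 5.24, adjusted p = 5.4e-09). Onecut1, a factor of hepatocytes and early duct cells, did not pass (log2 -0.85, adjusted p = 0.41). With atorvastatin Spp1 (log2 -0.79, adjusted p = 0.00065) and Bicc1 (log2 -0.75, adjusted p = 0.0017) fell in edgeR's test and 11 genes did not pass, with a median of -0.68. Of the 13 genes 7 had an unadjusted p under 0.05, DESeq2 called 3 lower and limma-voom 7 lower. Spp1 is also made by macrophages and other cells.

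Of 17 genes of epithelial junctions, 7 rose, 3 fell and 7 did not pass on WTD (median 0.23). Cldn4, a claudin of duct epithelium, rose from 0.30 to 4.88 CPM (log2 3.98, adjusted p = 2.2e-07), while Cldn3, a claudin that is abundant in hepatocytes as well, fell from 163 to 120 CPM (log2 -0.45, adjusted p = 1.9e-06). With atorvastatin edgeR called 1 of the 17 genes, Cldn12, which rose (log2 0.40, adjusted p = 0.0017), and limma-voom called Cldn4 lower as well.

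The Notch and YAP pathways are known for their roles in duct cell fate. Of 12 Notch pathway genes 5 rose and 7 did not pass on WTD (median 0.57), among them the target gene Hey1, which rose from 0.78 to 6.26 CPM (log2 2.99, adjusted p = 4.5e-07), and the pathway's DNA-binding factor Rbpj (log2 0.83, adjusted p = 8.8e-08). Rbpj fell with atorvastatin (log2 -0.37, adjusted p = 0.0097) and the other 11 did not pass in edgeR's test, while limma-voom also called Notch1 higher. The call of Rbpj was lost in 30 of the 42 fits without 1 mouse (highest adjusted p = 0.024). Of 14 tested YAP pathway genes 7 rose and 7 did not pass on WTD (median 0.78). The target gene Ccn2 rose from 5.13 to 21.2 CPM (log2 2.05, adjusted p = 1.7e-08) and the coactivator gene Wwtr1 from 19.6 to 35.0 CPM (log2 0.84, adjusted p = 1.2e-07), whereas Yap1 did not pass (log2 -0.10, adjusted p = 0.28). With atorvastatin the kinase gene Stk3 fell (log2 -0.48, adjusted p = 0.0095) in edgeR's test and 13 genes did not pass, while DESeq2 called 2 genes lower, Stk3 and Ccn2, and limma-voom 5 lower and 1 higher, Yap1. The call of Stk3 was lost in 30 of the 42 fits without 1 mouse (highest adjusted p = 0.028). Stellate and endothelial cells use both pathways too.

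Of 11 tested ductular growth signals, 3 rose, 2 fell and 6 did not pass on WTD (median 0.88). Lifr, the receptor gene for LIF that hepatocytes express, fell from 321 to 93.3 CPM (log2 -1.78, adjusted p = 1.8e-16) and rose with atorvastatin (log2 0.54, adjusted p = 0.00069). Tnfrsf12a, the receptor gene for the progenitor growth signal TWEAK, rose from 10.5 to 35.0 CPM (log2 1.74, adjusted p = 1.9e-07). With atorvastatin Lifr was the 1 gene of these 11 that edgeR called, and 10 did not pass, among them Tnfrsf12a (log2 -0.52, adjusted p = 0.089). DESeq2 called 1 higher and 0 lower. The limma-voom fit called 1 higher and 2 lower, Tnfrsf12a (log2 -0.81, adjusted p = 0.00013) and Tgfb2 (log2 -0.85, adjusted p = 0.0010). Of 8 proliferation genes 2 rose on WTD, Pcna (log2 0.44, adjusted p = 0.00029) and Mcm5 (log2 0.74, adjusted p = 0.0093), whose call was lost in 23 of the 42 fits without 1 mouse (highest adjusted p = 0.025), and Mki67 did not pass (log2 0.34, adjusted p = 0.27). Of 10 genes linked to Mallory-Denk bodies, inclusions of keratins 8 and 18 in hepatocytes, 2 rose, 2 fell and 6 did not pass on WTD (median -0.17). The transglutaminase gene Tgm2 rose from 204 to 559 CPM (log2 1.45, adjusted p = 7.6e-16), and Sqstm1, which encodes the inclusion protein p62, did not pass (log2 0.22, adjusted p = 0.050). With atorvastatin edgeR called 0 of the 8 proliferation genes, of which 1 had an unadjusted p under 0.05, and DESeq2 and limma-voom called 0 as well. It also called 0 of these 10 keratin-handling genes, of which 3 had an unadjusted p under 0.05, while DESeq2 and limma-voom each called 2 lower, Tgm2 and the chaperone gene Hspb1.

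**Figure D5:**
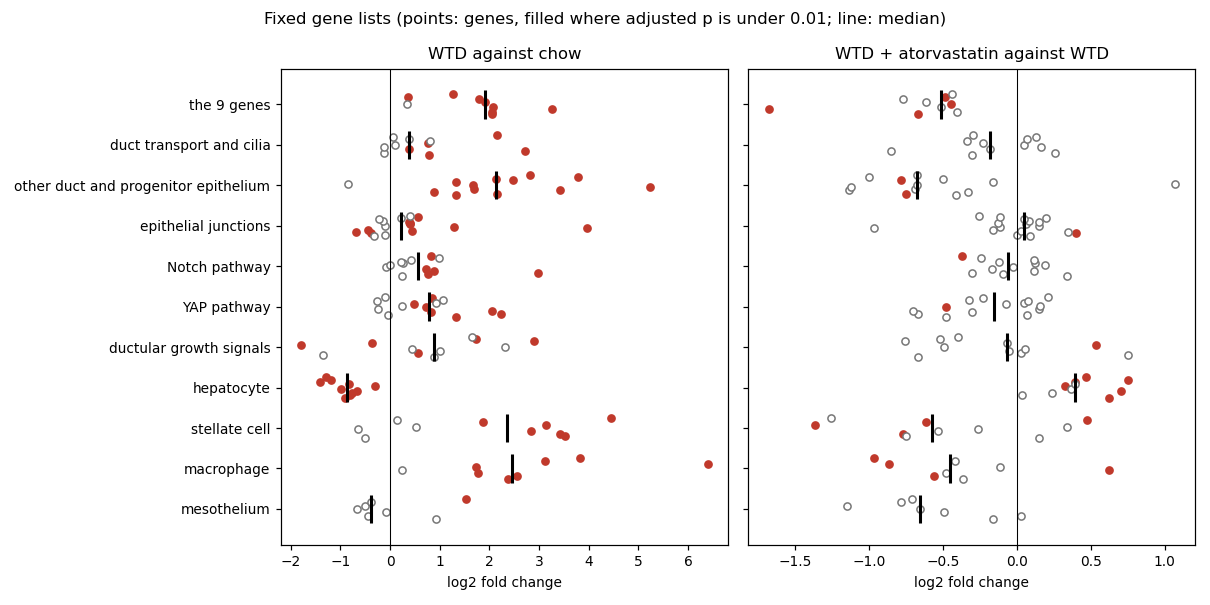
Log2 fold change (horizontal axes) of every tested gene of the named lists in WTD against chow and in WTD with atorvastatin against WTD, with filled points where the adjusted p was under 0.01 and a line at the list's median. The 9 genes and the list of other duct and progenitor epithelium have medians of 1.91 and 2.12 on WTD, and hepatocyte genes lie below 0 with a median of -0.87.

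Markers of other cell types that carry some of the 9 genes moved as well. All 10 hepatocyte markers fell on WTD (median -0.87), with summed levels of 110340 to 159660 CPM on chow, 51398 to 108900 CPM on WTD and 60857 to 130360 CPM with atorvastatin, where 6 markers rose (median 0.40). Of 10 stellate cell markers 6 rose on WTD (median 2.35), with sums of 183 to 467, 781 to 2182 and 674 to 2104 CPM in the order of the groups. Of 8 macrophage markers 7 rose (median 2.46), with sums of 186 to 353, 943 to 1449 and 762 to 1228 CPM. With atorvastatin 3 stellate cell markers fell and 1 rose in edgeR's test (median -0.57), and 3 macrophage markers fell and 1 rose (median -0.45). DESeq2 called 5 stellate cell and 4 macrophage markers lower, and limma-voom 6 and 5. Both of these tools called 1 marker of each list higher. Of 8 B cell markers 1 rose on WTD, with medians of the sum at 48.2, 67.8 and 63.0 CPM. The immunoglobulin gene Ighm was also called lower by edgeR (log2 -2.37), but this rested on chow mouse 1 at 1358 CPM, without which the log2 difference was 0.52 (adjusted p = 0.13), and DESeq2 and limma-voom did not call it. Of 4 tested neutrophil markers 3 rose, with medians of 11.0, 29.0 and 22.8 CPM, and of 8 erythroid markers 4 rose and 1 fell, with medians of 249, 410 and 474 CPM. Of 7 mesothelium markers 1 rose, with sums of 4.20 to 33.5, 8.84 to 31.5 and 6.17 to 27.1 CPM. Of 4 tested gallbladder markers 2 rose, Fxyd3 and Muc1, which is also on the list of other duct and progenitor epithelium. The call of Fxyd3 (adjusted p = 0.0099) was lost in 33 of the 42 fits without 1 mouse (highest adjusted p = 0.020). The gallbladder sums were 2.68 to 14.8, 7.99 to 26.0 and 4.38 to 24.6 CPM, and Muc5b had 0 counts in all mice. The pancreas genes Cpa1, Prss2, Amy2a5 and Ins2 had 0 counts in all mice, and Cela1, which fell on WTD (adjusted p = 0.0029, and 0.013 without chow mouse 7), was the only tested one. The part of these cell types in the levels of the 9 genes was not tested.

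The genes most like the 9 genes across all 42 mice, after the mean of each group was subtracted, were ranked by Pearson r to the mean of the standardised values of the 9 genes. Fstl1, a secreted glycoprotein gene of mesenchymal cells, came first with r = 0.90, and r was 0.91 within chow, 0.94 within WTD and 0.88 within treated mice. Mgp, Mfge8, Anxa5 and Col6a1 followed with r = 0.83 each, then Spp1 (0.82), Timp3 (0.81), Nid1 (0.81), Col6a3 (0.80) and Lum (0.79). Several of these encode matrix proteins. Within chow r was lower than within WTD for Spp1 (0.34 and 0.97), Lum (0.41 and 0.91) and Anxa5 (0.56 and 0.94). It was higher within chow for Col6a1 (0.86 and 0.77) and Nid1 (0.90 and 0.77). WTD mouse 15 was not left out of these values. Their r values share the libraries, and with them depth and library quality, and they are given as a description.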

How the data were processed

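Liver RNA of 42 mice was sequenced from strand-specific libraries of polyadenylated RNA with paired reads. Per the labels and the study's methods, reads were trimmed with Trimmomatic, aligned to GRCm38 with STAR 2.5 and counted per gene with HTSeq 0.6.1p1. The authors deposited raw counts of read pairs per gene, without normalization. The counting summary lines were left out: pairs in no gene were 2.28% on average, ambiguous pairs 5.95% and pairs aligned to several places 4.68%. The 42 single tables were identical to the merged table, and no 2 libraries of a group agreed within sampling noise.

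Symbols, positions and lengths came from GENCODE vM21 of GRCm38 (54409 of 54446 identifiers found), and promoters from RefSeq in GRCm38.p6. Low genes were removed by filterByExpr with a minimum count of 10 and a total of 15, libraries were scaled by TMM and genes were tested in edgeR 4.0.16 (R 4.3.3) with robust quasi-likelihood over all 42 mice, without covariates. P values were adjusted by Benjamini and Hochberg over the 15574 tested genes, and those under 0.01 were called. SE is the absolute log2 fold change divided by the root of the F statistic. Ratios and correlations used two-sided permutation tests (100000 permutations, smallest p 1e-05, threshold 0.05), with 0.5 counts added in ratios and a prior count of 2 in log2 CPM. Alternatives were DESeq2 1.42.0, limma 3.58.1 voom with quality weights, other scalings and filters, 2 groups only, no robust estimation, other thresholds, library quality and leaving out each mouse. The method was tested on simulated data.

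The genes, lists and tests were chosen with earlier results of these data known, so they are no independent evidence. The text names all 9 genes, the 2 genes with the smallest p of each list in WTD against chow and in treated against WTD-fed mice where they help a reader, genes that stand for absent cell types, and some others named with their values known. The lists, 17 beside the 9 genes, are described by counts and medians. The 95% intervals of log2 fold changes are normal intervals from the SE. Histology, plasma and protein values were not analysed here. Figures were made with Python 3.11.15 and matplotlib 3.10.9.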

Additional observations from a re-analysis of the deposited data

Results flagged for a closer look

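Among the 10 chow mice, 4 of 13 values tested had a mouse far from the others by Dixon's test at the 95% level, which flags about 1 in 20 groups by chance, and all 4 came from chow mouse 2. Its Krt19 level was 11.1 CPM, and the next highest chow mouse had 4.61 CPM. Its log2 ratio of Krt19 to Krt18 was -4.56 (next -6.05), that of Krt19 to Krt8 was -5.41 (next -6.66), and that of Krt7 to Krt19 was -8.45 (next -1.19), from 0 counts of Krt7. The same library missed 57.3% of weakly expressed genes, the highest share of the 42 libraries. The 4 values share the Krt19 count of this mouse and are not independent. The cause was not tested.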

How the results depend on the processing

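No paired analysis was possible because the mouse numbers name different animals in each group. For the 9 genes in 3 comparisons, 264 of 288 results under another setting kept their direction and their side of the threshold, 5 lost the call (Krt8 in WTD against chow without a filter, Cd24a in treated against WTD-fed mice without the 9 libraries described next or with the missed share as a covariate, and Elf3 with limma-voom and Cldn7 with 2 groups in treated mice against chow), 18 gained it and 1 reversed: Krt18 between treated mice and chow, uncalled in all settings, had a log2 fold change of 0.0052 without the 9 libraries that missed over 20% of weak genes. Of 1134 results without 1 mouse, 33 changed the call and 0 reversed. Genes called in treated against WTD-fed mice numbered 8 with limma-voom and 1 when a log2 fold change of 1 or more was also required, compared with 4. Over all genes that comparison had 1106 calls, 3145 with limma-voom, 1664 without the 9 libraries and 100 with this fold change, and DESeq2 called 694 higher and 669 lower. Leaving out 1 mouse gave 7 to 9 called genes in WTD against chow, 3 to 5 in treated against WTD-fed mice and 6 to 7 in treated mice against chow. The log2 ratio of Krt8 to Krt18 differed by 0.025 between WTD and chow without the 9 libraries. That of Krt7 to Krt19 differed by -0.38 without added counts and -0.43 without the 9 libraries between WTD and chow, and between treated mice and chow by -0.51 in both and by -0.019 with 5 counts added. The correlated pairs on WTD fell from 24 to 7 without the libraries and to 6 without WTD mouse 15, a setting chosen after seeing the data. Krt7, Elf3 and Cldn7 could not be fitted with at least 10 counts in every mouse. The cause of these changes was not tested. Krt7, Elf3 and Cldn7 had 0 counts in chow mouse 2, and Cldn7 also in chow mouse 6.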
